A study of Mus musculus with 9 samples.

Results

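The kidneys of mice given lipopolysaccharide (LPS) together with thymosin β4 (LPS+Tβ4) were compared with the kidneys of mice given LPS alone, 3 mice in each group. A gene entered the comparison if its FPKM averaged 0.5 or more over all 9 libraries of the study, which kept 15015 of 34310 genes. The study also holds 3 mice given saline, whose levels are given as the background and whose spread enters the fit. LPS is the endotoxin of Gram-negative bacteria and is used to model the kidney injury of sepsis, and the study's title concerns thymosin β4, that injury and MAPK signalling. The labels name the tissue as kidney and give each mouse its treatment, with no dose, route, time of sampling, age, sex or strain, so how long after LPS the kidneys were taken and when thymosin β4 was given are not known here. Each library was made from poly(A) RNA and holds 53.0 to 62.0 M counts. Levels are counts per M of the library (CPM) in each library, changes are log2 fold changes ± SE of LPS+Tβ4 against LPS from edgeR's quasi-likelihood test, and a gene is said to rise, fall or be called where the Benjamini-Hochberg adjusted p was under 0.05.

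Endotoxin binds TLR4 with its co-receptor CD14 and starts a first wave of NF-κB and MAPK transcription and a second wave driven by interferons. Interferons act through STAT and IRF factors, which bind the interferon-stimulated response element (ISRE) and switch on antiviral proteins, guanylate-binding proteins and the class I antigen presentation machinery. Class II antigen presentation depends on a separate master factor, CIITA, and is kept mainly to dendritic cells, macrophages and B cells, although tubule cells can acquire it. The kidney tubule meanwhile loses much of its transporter and enzyme programme in endotoxaemia. Thymosin β4 is a small peptide known for binding monomeric actin.

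Transcripts typical of tissue other than kidney cortex and medulla differed between libraries, and these differences touch the comparison. Whether such tissue was present was not tested. Transcripts of 5 urothelial genes, which mark the lining of the renal pelvis, summed to 72.9, 84.1 and 0.784 CPM in LPS replicates 1, 2 and 3 and to 0.695, 0.839 and 90.4 CPM in LPS+Tβ4 replicates 1, 2 and 3. Replicate 3 therefore stood apart in both groups, in opposite ways. A list of 32 neuronal genes summed to 173 to 428 CPM in LPS and to 719 to 811 CPM in LPS+Tβ4, against 192 to 235 CPM in saline. An erythroid list summed to 576 to 747 CPM in LPS and to 247 to 330 CPM in LPS+Tβ4, against 654 to 796 CPM in saline. A list of 16 genes of central myelin overlapped between the groups, at 198 to 773 CPM in LPS and 672 to 1098 CPM in LPS+Tβ4, against 586 to 710 CPM in saline. A list of 14 astrocyte genes summed to 598 to 760 CPM in LPS and 1008 to 1341 CPM in LPS+Tβ4, against 1247 to 1442 CPM in saline. Aqp4 and Slc4a4 of the astrocyte list also stand in the tubule lists described below. The myelin gene Mobp was at 0.938 to 1.48 CPM in saline, so other members made up most of the myelin sum there. The neuron, astrocyte and erythroid sums thus separated LPS from LPS+Tβ4 in all 6 libraries and the myelin sum did not, and their part in any other difference cannot be told apart from the treatment. In whole tissue, fewer cells of a type and less RNA per cell cannot be told apart either.

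**Figure D1:**
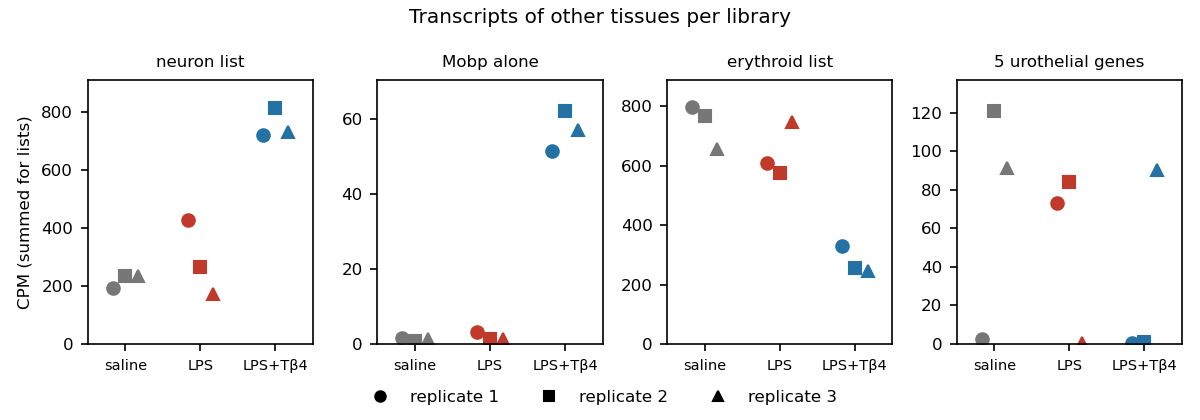
Summed CPM (y axis) of the neuron list, the myelin gene Mobp alone (a member of a list whose sum overlaps between the groups), the erythroid list and 5 urothelial genes in each library, by group (x axis), with the replicate number as the symbol. All 3 LPS+Tβ4 libraries lie above every other library for the neuron list (719 to 811 CPM) and below every other library for the erythroid list (247 to 330 CPM), and the urothelial genes follow single libraries and not the groups.

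Of the 15015 genes tested, 675 rose (4.50%) and 350 fell (2.33%), which makes 1025 called genes (6.83%). The 3 values of each group did not overlap for 3950 genes (26.3%), and all 1025 called genes were among them. The risers changed more than the fallers: the median change was 1.26 among risers and -0.85 among fallers, 456 risers and 135 fallers changed at least 2-fold, and the median over all genes was -0.01. Neural annotation here means a neural Gene Ontology term or a place in a neural list. It was commoner among the risers, with 199 of 675 (29.5%), than among all tested genes, with 2749 (18.3%), and 476 risers carried none. The number of calls rested on single libraries and on the saline libraries that inform the spread. Leaving out LPS replicate 2 left 92 higher and 10 lower genes, leaving out LPS+Tβ4 replicate 1 left 172 and 26, and leaving out LPS+Tβ4 replicate 2 left 65 and 3. Without LPS replicate 1 there were 1507 and 1165, without LPS replicate 3 there were 338 and 124, and without LPS+Tβ4 replicate 3 there were 590 and 345. Without saline replicates 1, 2 or 3 the counts were 354 and 100, 308 and 94, and 272 and 69. Fitted on the 6 LPS and LPS+Tβ4 libraries alone, edgeR called 3 genes, all higher: the glucose transporter Slc2a2 and the neural genes Slc1a2 and Camk2a. That fit gave an unadjusted p under 0.05 for 2898 genes. With the urothelial sum as a covariate 694 genes were higher and 481 lower, of which 588 and 321 were among the calls above. With the erythroid sum as a covariate no gene was called in edgeR, with 230 at an unadjusted p under 0.05. That sum separates LPS from LPS+Tβ4 completely, so this fit cannot tell it apart from the treatment.

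**Figure D2:**
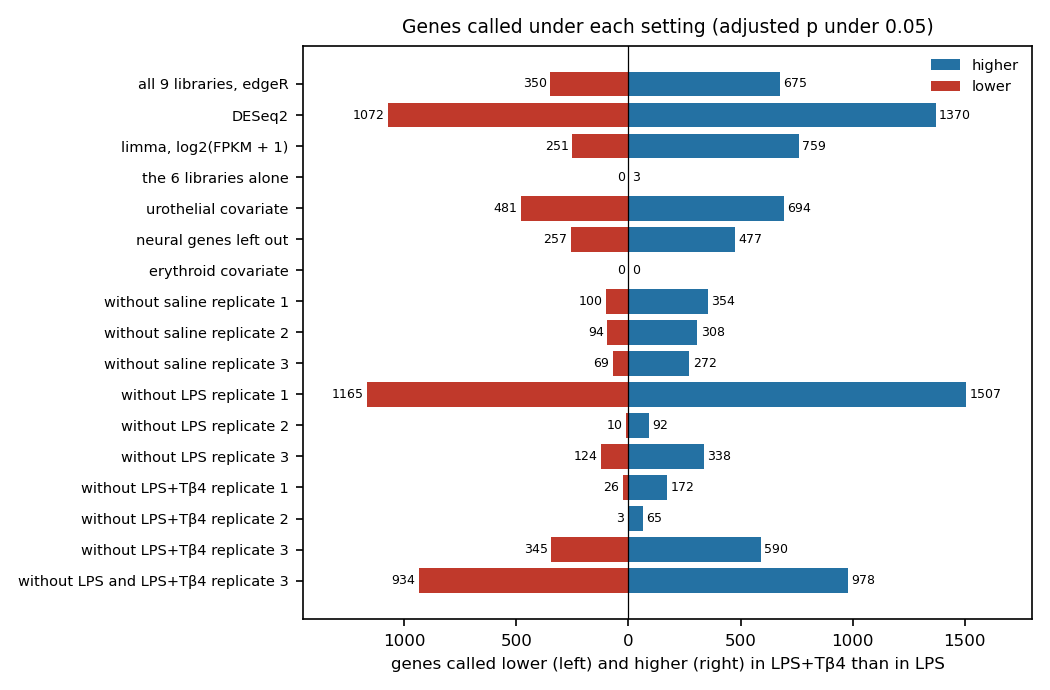
Number of genes called lower (left bars) and higher (right bars) in LPS+Tβ4 than in LPS under each setting, at an adjusted p under 0.05. All 9 libraries in edgeR gave 675 higher and 350 lower. The settings drawn run from 0 and 0 with the erythroid covariate and 3 and 0 with the 6 libraries alone to 1507 and 1165 without LPS replicate 1. The erythroid covariate separates LPS from LPS+Tβ4 completely and cannot be told apart from the treatment.

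Genes induced by interferon were lower in LPS+Tβ4 in large number. Over 6 lists of interferon-stimulated genes and interferon signalling, 102 genes were tested, of which 32 fell, 1 rose and 69 were not called, with a median change of -0.96 against -0.01 over all genes. The share of all tested genes that fell was 2.33%. All 32 fallers had every LPS library above every saline library and a mean in LPS+Tβ4 between the means of saline and LPS. The same LPS libraries enter both differences. The first examples, Tap1, Gbp4, Ifit2 and Stat2, stand for 4 parts of the response: peptide transport, cell-autonomous defence, translation block and signalling.

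Tap1 (ENSMUSG00000037321, chromosome 17 at 34187553 to 34197225, GRCm38) encodes a subunit of the pump that carries peptides to MHC class I molecules. Its levels were 239, 359 and 344 CPM in LPS and 87.3, 69.2 and 107 CPM in LPS+Tβ4, against 12.1, 13 and 10.1 CPM in saline. The highest LPS+Tβ4 library lay below the lowest LPS library, a fall of 3.57-fold (-1.83 ± 0.22, adjusted p = 0.0095). This call held when any 1 of the 9 libraries was left out, with changes of -2.03 to -1.69, and with the urothelial covariate (-1.82). Psmb9 overlaps Tap1 from the other strand, and whether the counting separated strands is not given in the sources used here.

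Gbp4 (ENSMUSG00000079363, chromosome 5 at 105115767 to 105139586) belongs to the guanylate-binding proteins, which attack vacuoles of intracellular pathogens. It measured 259, 491 and 264 CPM in LPS and 50.3, 38.9 and 99.2 CPM in LPS+Tβ4, with 9.3 to 12.9 CPM in saline. The groups did not overlap (-2.43 ± 0.40, adjusted p = 0.018). Gbp9 fell by 2.19 and Gbp5 by 1.93 on the log2 scale, Gbp8 by 1.71 and Gbp7 by 1.62. In this way 5 of 10 tested members fell and none rose, where 2.33% of all genes fell. The median of the family was -1.53, and members share long stretches of sequence, so reads may have been divided between copies. The count of 5 became 0 without LPS replicate 2 or LPS+Tβ4 replicate 2, 1 without LPS+Tβ4 replicate 1, 8 without LPS replicate 1 and 3 without any other single library.

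Among 32 antiviral effectors, 13 fell and none rose (median -1.22), where 2.33% of all genes fell. Ifit2 (ENSMUSG00000045932, chromosome 19 at 34550694 to 34576419), which binds RNA and blocks translation, had 266, 517 and 369 CPM in LPS and 86.2, 98.1 and 115 CPM in LPS+Tβ4. All 3 LPS libraries were higher than all 3 LPS+Tβ4 libraries (-1.94 ± 0.31, adjusted p = 0.017). Rsad2, the antiviral enzyme viperin, went from 77.7, 163 and 218 to 39.2, 28.5 and 46.4 CPM, with saline at 14.7 to 25.1 CPM. The dynamin-like GTPases Mx1 and Mx2 fell by 2.16 and 1.62, Cmpk2 by 1.45, Parp9 by 1.41 and Xaf1 by 1.36. Isg15, Ifit1, Herc6, Parp14, Trim30a and Ifi35 completed the 13. The count was 1 without LPS replicate 2 or LPS+Tβ4 replicate 1, 0 without LPS+Tβ4 replicate 2, 7 without saline replicate 1 or LPS replicate 3, and 23 without replicate 3 of both groups.

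Immunity-related GTPases, which tag pathogen vacuoles, had 4 falls among 10 tested genes, where 2.33% of all genes fell. All 10 changes were below 0 (median -1.16). Irgm2 was the tightest, at 225, 252 and 271 CPM in LPS and 122, 125 and 134 CPM in LPS+Tβ4 (-0.97 ± 0.14, adjusted p = 0.014). Gm12250 fell by 2.29, Ifi47 by 2.05 and Iigp1 by 1.60. Ifi47 overlaps Olfr56 on the same strand, which itself was listed among the largest falls (-2.10), and Irgm2 overlaps Igtp, so reads of these pairs cannot be assigned with certainty. No call in this list was left without LPS replicate 2 or LPS+Tβ4 replicate 2, 1 was left without LPS+Tβ4 replicate 1, 2 without LPS replicate 3 or any saline library, and 10 were made without LPS replicate 1. Of 14 sensors of foreign nucleic acid and OAS proteins, Oasl1 (-1.64) and Ifih1 (-0.60) fell, and all 14 changes were below 0.

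Within the signalling chain the factors that form the type I interferon complex were lower. Stat2 (ENSMUSG00000040033, chromosome 10 at 128270559 to 128292849) measured 193, 221 and 143 CPM in LPS and 61.8, 56.2 and 93.2 CPM in LPS+Tβ4, with saline at 20.6 to 23.3 CPM (-1.40 ± 0.23, adjusted p = 0.017). Its partner Irf9 went from 97.8, 90.4 and 85.9 to 57.9, 58.4 and 71.4 CPM (-0.55). Irf1, a factor downstream of interferon-γ, went from 172, 189 and 137 to 65.8, 55.2 and 97.3 CPM (-1.19). Irf7 gave -0.42, the receptor chains Ifnar1 and Ifngr1 gave -0.62 and -0.28, and none of these 3 was called. None of the 10 interferon ligand genes listed passed the expression filter, so whether the ligands differed was not measured here.

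The 32 falls in the interferon lists became 17, 21 and 20 without saline replicates 1, 2 and 3. They became 45, 2 and 23 without LPS replicates 1, 2 and 3, and 4, 1 and 33 without LPS+Tβ4 replicates 1, 2 and 3. Gbp4, Ifit2, Stat2 and the checkpoint gene Cd274 each lost their call without LPS replicate 2, LPS+Tβ4 replicate 1 or LPS+Tβ4 replicate 2, although the change of Gbp4 stayed between -2.29 and -2.05 in those 3 fits and that of Stat2 between -1.31 and -1.26. The urothelial covariate gave 38 falls, and 1 of the 32 carried a neural annotation.

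The ISRE, spelled GAAANNGAAA and searched on both strands, was looked up in the RefSeq promoters of GRCm38.p6, each 300 bases long with the gene's start at base 251. It was held by 1131 of all 32851 promoters (3.44%). By gene it was present in 406 of 10499 tested genes with a promoter (3.87%), in 22 of 281 fallers (7.83%), in 17 of 506 risers (3.36%), and in 35 of 74 genes of the interferon lists (47.3%). Within those lists 10 of 22 fallers (45.5%) and 25 of 51 genes that were not called (49%) held a match, so the presence of the motif in this window did not separate the members that fell from those that did not. The promoters below belong to the 5 fallers of the interferon lists with a match and the smallest adjusted p, and show what the element looks like in genes described above, in capitals, in either orientation (TTTC first where it lies on the other strand). A match is a description of letters and not a measured binding site.
Irgm2 promoter, chr11:58214727-58215026, plus strand, element 54 bases before the start: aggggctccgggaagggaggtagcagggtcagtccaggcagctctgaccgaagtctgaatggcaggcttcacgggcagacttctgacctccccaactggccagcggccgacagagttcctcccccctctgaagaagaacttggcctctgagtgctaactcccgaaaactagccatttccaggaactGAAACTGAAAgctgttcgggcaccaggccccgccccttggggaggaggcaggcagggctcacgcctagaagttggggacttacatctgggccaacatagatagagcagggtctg
Stat2 promoter, chr10:128270248-128270547, plus strand, element 212 bases before the start: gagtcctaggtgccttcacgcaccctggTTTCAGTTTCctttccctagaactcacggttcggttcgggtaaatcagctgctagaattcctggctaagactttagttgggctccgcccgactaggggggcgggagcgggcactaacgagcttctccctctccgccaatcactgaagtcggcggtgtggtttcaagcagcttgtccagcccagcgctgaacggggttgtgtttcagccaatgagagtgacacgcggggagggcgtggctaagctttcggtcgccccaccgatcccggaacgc
Rsad2 promoter, chr12:26456403-26456702, minus strand, element 110 bases before the start: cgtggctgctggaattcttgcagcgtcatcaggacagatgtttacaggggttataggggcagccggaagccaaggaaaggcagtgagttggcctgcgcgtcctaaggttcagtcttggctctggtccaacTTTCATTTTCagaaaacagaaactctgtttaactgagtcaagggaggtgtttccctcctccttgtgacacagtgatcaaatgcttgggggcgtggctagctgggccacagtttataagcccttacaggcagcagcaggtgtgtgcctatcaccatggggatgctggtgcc
Gbp7 promoter, chr3:142530086-142530385, plus strand, element 43 bases before the start: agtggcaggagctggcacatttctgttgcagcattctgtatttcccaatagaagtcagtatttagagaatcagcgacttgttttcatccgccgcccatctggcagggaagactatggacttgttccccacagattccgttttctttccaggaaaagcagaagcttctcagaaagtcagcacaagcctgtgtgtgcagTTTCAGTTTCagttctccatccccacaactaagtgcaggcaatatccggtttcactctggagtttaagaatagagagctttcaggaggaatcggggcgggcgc
Ifih1 promoter, chr2:62646206-62646505, minus strand, element after the start: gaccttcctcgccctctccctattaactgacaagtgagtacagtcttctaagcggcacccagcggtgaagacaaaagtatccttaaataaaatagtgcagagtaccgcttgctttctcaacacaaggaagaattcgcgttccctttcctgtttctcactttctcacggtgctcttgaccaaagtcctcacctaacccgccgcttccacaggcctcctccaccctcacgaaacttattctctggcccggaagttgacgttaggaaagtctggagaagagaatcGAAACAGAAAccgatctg

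Class I and class II antigen presentation differed in direction. Of 19 class I genes, 5 fell and 1 rose (median -0.49), and of 8 tested class II genes 7 rose and none fell (median 1.48). Of all genes, 2.33% fell and 4.50% rose. The class I falls were Tap1, its partner Tap2 (-0.90), the immunoproteasome subunit Psmb10 (-0.91), the class I transactivator Nlrc5 (-1.10) and the non-classical molecule H2-Q4 (-1.02). The 5 became 1 without LPS replicate 2, LPS+Tβ4 replicate 1 or LPS+Tβ4 replicate 2, 3 without any saline library and 8 without LPS replicate 3. The classical heavy chains were not called. H2-K1 stood at 1306, 1536 and 971 CPM in LPS and 1588, 1607 and 1453 CPM in LPS+Tβ4 (0.29 ± 0.20), H2-D1 gave -0.01 ± 0.19 and the light chain B2m 0.15 ± 0.21. H2-Q7, another non-classical gene, rose from 32.8, 39.6 and 22.6 to 73.8, 80.8 and 58.1 CPM (1.16). The H2 genes are close copies of each other, so their counts carry that uncertainty.

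Ciita (ENSMUSG00000022504, chromosome 16 at 10480059 to 10526426), the master activator of class II genes, rose from 10.6, 9.46 and 12.1 CPM in LPS to 26.1, 46.9 and 25 CPM in LPS+Tβ4 (1.61 ± 0.29, adjusted p = 0.022), above its 2.42 to 3.89 CPM in saline. H2-Ab1 (ENSMUSG00000073421, chromosome 17 at 34257689 to 34269419), a class II β chain, had 79.5, 80.1 and 72.6 CPM in LPS and 293, 316 and 145 CPM in LPS+Tβ4 (1.70 ± 0.31, adjusted p = 0.024). H2-Eb1 (ENSMUSG00000060586, chromosome 17 at 34305867 to 34316674) had 55.3, 50.7 and 60.6 CPM in LPS, close to its 32.5 to 58.8 CPM in saline, and 190, 235 and 109 CPM in LPS+Tβ4 (1.68 ± 0.30, adjusted p = 0.022). In each of these genes every LPS+Tβ4 library was higher than every LPS library, and LPS+Tβ4 replicate 3 was the lowest of its group. The α chain H2-Aa rose by 1.35, and the peptide-loading factors H2-DMa and H2-DMb1 by 1.27 and 0.96, and their relative H2-DMb2 went from 10.7, 11.2 and 10.9 to 43.2, 57.8 and 21.7 CPM. Cd74, the invariant chain that guides class II molecules, was not called, at 244, 286 and 312 against 581, 520 and 280 CPM (0.71 ± 0.29). H2-Oa and H2-Ob did not pass the expression filter.

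Leaving out LPS replicate 2 or LPS+Tβ4 replicate 2 left none of the 7 class II calls, leaving out LPS+Tβ4 replicate 1 left 1, leaving out LPS replicate 3 left 2 and leaving out saline replicate 2 left 4. All 7 were called with the urothelial covariate, and none carries a neural annotation. Markers of the cells that usually hold class II molecules were compared alongside. Of 14 tested macrophage and monocyte genes edgeR called 0, with 8 higher and 1 lower at an unadjusted p under 0.05 and 6 higher and 1 lower in DESeq2 (median 0.87). Csf1r, the receptor for macrophage growth factor, measured 17.3, 10.2 and 12 CPM in LPS and 29.9, 29.1 and 22.9 CPM in LPS+Tβ4 (1.05, adjusted p = 0.067). None of the 8 lymphocyte genes tested was called in edgeR, in DESeq2 or at an unadjusted p under 0.05 (median -0.05). The part of macrophage number in the class II rise was not tested.

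**Figure D3:**
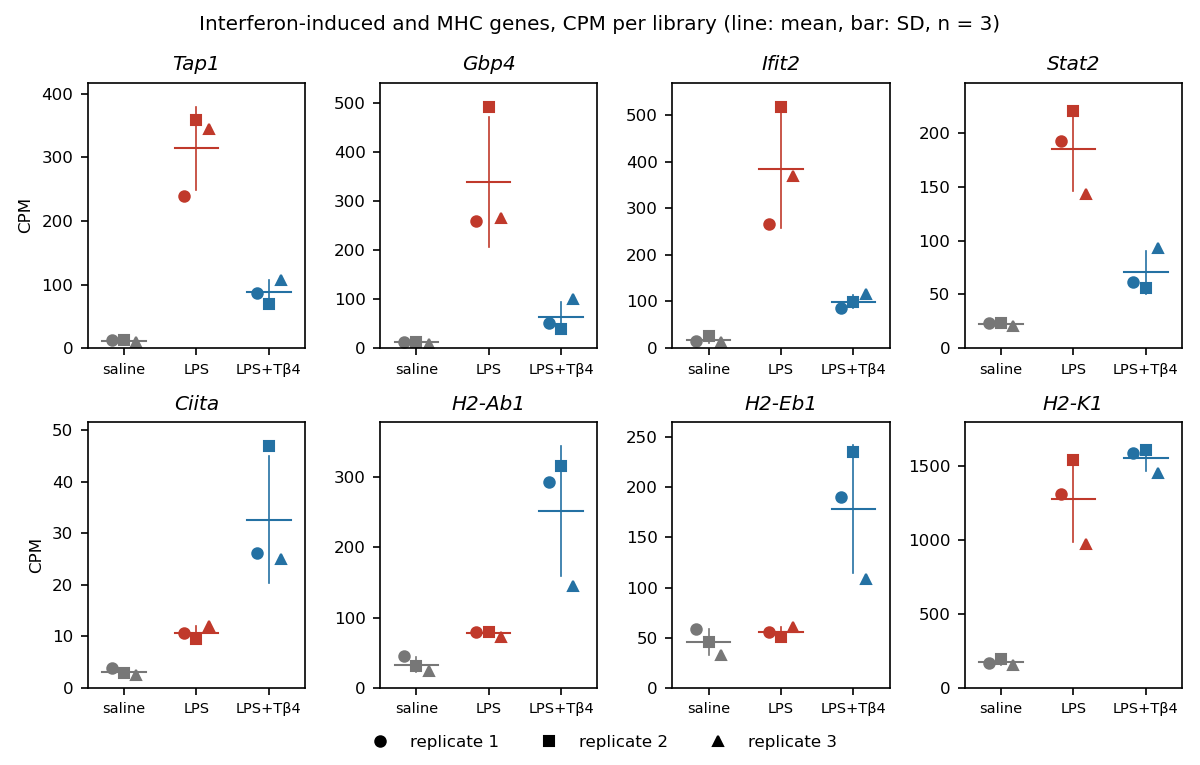
CPM per library (y axis) of 4 interferon-induced genes (top), of Ciita and the class II genes H2-Ab1 and H2-Eb1, and of the class I heavy chain H2-K1 (bottom), by group, with the mean (line) and SD (bar, n = 3). The top row is lower in LPS+Tβ4 than in LPS, the class II genes are higher in LPS+Tβ4 than in both other groups, and H2-K1 overlaps between the endotoxin groups.

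Cd274 (ENSMUSG00000016496, chromosome 19 at 29367455 to 29388095) encodes the checkpoint ligand PD-L1, which restrains T cells and is itself induced by interferon. It went from 71.2, 196 and 231 CPM in LPS to 24.9, 16 and 38.3 CPM in LPS+Tβ4, with saline at 4.64 to 7.31 CPM, a fall of 6.29-fold (-2.65 ± 0.47, adjusted p = 0.022). Cd47, which signals to phagocytes not to engulf a cell, went from 294, 366 and 246 to 152, 117 and 160 CPM (-1.08). These were the 2 falls among 10 tested checkpoint genes, where 2.33% of all genes fell. All 10 had a change below 0 (median -0.92). Without replicate 3 of both groups 7 of the 10 fell, and without LPS replicate 2, LPS+Tβ4 replicate 1 or LPS+Tβ4 replicate 2 none did.

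Upstream of these genes the endotoxin receptor pathway showed little that passed the test, where 2.33% of all genes fell. Of 18 tested TLR4 pathway genes, 1 fell: Tbk1, the kinase that leads from TLR4 to interferon, at 59.1, 91.4 and 95.6 CPM in LPS and 44.3, 44.4 and 48.2 CPM in LPS+Tβ4 (-0.85). Cd14 ranged from 345 to 2124 CPM in LPS and from 161 to 403 CPM in LPS+Tβ4, with saline at 9.65 to 10.7 CPM, and was not called (-2.18 ± 0.59, adjusted p = 0.063). Tlr4 followed the pelvis-rich libraries, with 30.5, 27.6 and 8.71 CPM in LPS and 5.62, 5.19 and 22.9 CPM in LPS+Tβ4 (-0.98 ± 0.68). Of 19 NF-κB genes only the inhibitor of apoptosis Birc3 fell (-1.21), and Nfkb1 gave -0.41 ± 0.15. Among the 9 fits that left out a library, both falls were called only in the 2 without LPS replicate 1 or LPS+Tβ4 replicate 3. Without LPS replicate 1, 7 genes of the TLR4 list and 3 of the NF-κB list fell. Below 0 were 14 of the 18 TLR4 changes (median -0.42) and 16 of the 19 NF-κB changes (median -0.25). At an unadjusted p under 0.05 in edgeR, 7 TLR4 and 8 NF-κB genes were lower and none higher. DESeq2 gave 3 and 6 lower, where it gave 1072 lower of all 14952 genes.

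Cytokines and chemokines moved singly, where 4.50% of all genes rose and 2.33% fell. Il1b, the inflammasome cytokine, was low but rose from 0.984, 1.86 and 2.53 to 7.55, 3.63 and 13.3 CPM (2.19 ± 0.54, adjusted p = 0.049), a call that was lost when any 1 library was left out. Il6 gave -0.41 ± 0.77 and Tnf -0.35 ± 0.78, with overlapping groups. Among 26 chemokines the macrophage chemokines Ccl6 (1.67) and Ccl9 (1.89) rose, and the neutrophil attractant Cxcl5 fell from 79.7, 70.8 and 65.3 to 43.6, 24.1 and 27.2 CPM (-1.19, adjusted p = 0.024). The leukocyte adhesion molecules of activated vessels split: Icam1 went from 135, 171 and 209 to 87.8, 71.8 and 90.2 CPM (-1.04), while Vcam1 went from 19.1, 31.1 and 27.4 to 74.4, 63.3 and 42.2 CPM (1.21). Icam1 kept its call in 6 of the 9 fits that left out a library and Vcam1 in 2. In the same fits Cxcl5 kept its call in 6, Ccl6 in 3 and Ccl9 in 1. Among the 18 tested IL-6 family and JAK-STAT3 target genes edgeR called 0, with 3 lower at an unadjusted p under 0.05 and 2 lower in DESeq2. Neutrophil genes gave 0 calls in edgeR and DESeq2 among 9, none at an unadjusted p under 0.05.

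The best-known injury markers of the tubule overlapped between the groups. Havcr1, which encodes the injury marker KIM-1, measured 787, 656 and 1135 CPM in LPS and 1281, 891 and 387 CPM in LPS+Tβ4 (-0.01 ± 0.46). Lcn2, which encodes NGAL, measured 9089, 6436 and 3277 CPM in LPS and 3139, 1870 and 4966 CPM in LPS+Tβ4 (-0.91 ± 0.44, adjusted p = 0.24). Among 34 injury and repair genes only Vcam1 was called, and the median was -0.35. Of 22 cell death effectors 3 fell and 1 rose, where 2.33% of all genes fell and 4.50% rose. The falls included Bid, which carries the caspase signal to mitochondria (88.6, 85 and 93.3 against 35.6, 44.4 and 60.4 CPM, -0.93), and the mitochondrial pore former Bak1 (-0.56). Bcl2a1b, which blocks such pores, rose from 0.707, 1.78 and 1.24 to 3.38, 3.37 and 3.58 CPM (1.47) and is one of several near-identical copies. Bid kept its call in 2 of the 9 fits that left out a library, and Bak1 and Bcl2a1b in 1 each.

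Tubule genes rose in several segments. Over 6 lists of nephron segments 155 genes were tested, of which 25 rose and none fell (median 0.42 against -0.01 over all genes), with 4.50% of all genes rising. Of the 25 risers, 24 had every LPS library below every saline library, and 21 had a mean in LPS+Tβ4 between the means of LPS and saline, where again the same LPS libraries enter both differences. Abcg2, Cyp27b1, Kcne1 and Hmx2 had a mean above that of saline. The riser that LPS alone had not lowered was Cyp27b1, the enzyme that makes active vitamin D, which had 9.67, 11.8 and 5.8 CPM in LPS and 3.75 to 6.31 CPM in saline and rose to 44.1, 46.6 and 76.5 CPM in LPS+Tβ4 (2.62 ± 0.35, adjusted p = 0.013).

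Slc2a2 (ENSMUSG00000027690, chromosome 3 at 28697903 to 28731359), the basolateral glucose transporter GLUT2 of the proximal tubule, gave the smallest adjusted p among the tubule genes listed. It had 15.4, 9.74 and 10.1 CPM in LPS and 114, 169 and 119 CPM in LPS+Tβ4, against 235, 173 and 241 CPM in saline. All LPS+Tβ4 libraries were far above all LPS libraries, a rise of 11.4-fold (3.51 ± 0.26, adjusted p = 0.0026), and the call held whichever library was left out (3.31 to 3.74) and in the fit of the 6 libraries alone (adjusted p = 0.04). A transcript on the opposite strand, 1700112D23Rik, overlaps it. Keg1, a proximal tubule enzyme gene, went from 36.3, 51.8 and 32.7 to 204, 262 and 134 CPM and stayed far under its 1491 to 2243 CPM in saline (2.31).

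Further proximal transporters rose. Abcg2 and Abcc2, pumps for organic anions and drugs, rose by 1.61 and 1.65, the sulphate transporter Slc26a1 by 1.92, the urate exchanger Slc22a12 by 1.26, the cation exporter Slc47a1 by 1.15, Slc16a9 by 1.84 and the dicarboxylate transporter Slc13a2 by 1.28. With Slc2a2 this made 8 of 45 proximal transporters. Cyp27b1, Keg1, the peptidase Dpp4 (1.35), the glycine conjugating enzyme Glyat (1.21) and Pter (1.25) made 5 of 39 proximal enzymes and receptors. Of all genes, 4.50% rose. The medians of these lists were 0.34 and 0.10, with 17 of the 45 and 16 of the 39 changes below 0. They were 0.22 and -0.04 with the urothelial covariate, and 0.95 and 0.74 without replicate 3 of both groups. Other hallmark genes of the same cells were not called. The sodium-glucose cotransporter Slc5a2 ran from 25.2 to 255 CPM in LPS and from 95.5 to 122 CPM in LPS+Tβ4 (-0.40 ± 0.63), the phosphate transporter Slc34a1 gave -1.29 ± 0.70, the endocytic receptor Lrp2 0.60 ± 0.33 and Kl, which encodes klotho, 0.52 ± 0.52. LPS replicate 1 was the lowest LPS library for all 4 of these genes.

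Distal segments showed the same direction, where 4.50% of all genes rose. In the collecting duct, Hsd11b2 (ENSMUSG00000031891, chromosome 8 at 105518755 to 105523988), the enzyme that keeps cortisol-like steroids off the mineralocorticoid receptor, went from 13.3, 13.2 and 9.3 CPM in LPS to 59.6, 79.2 and 44.6 CPM in LPS+Tβ4, against 87.8 to 143 CPM in saline (2.36 ± 0.28, adjusted p = 0.0093). Its call held in all 9 fits that left out a library. Of 18 intercalated cell genes 6 rose (median 1.11): the proton pump subunit Atp6v1b1 (2.19), the carbonic anhydrase Car12 (2.01), the ammonia channels Rhcg (2.03) and Rhbg (1.50), the factor Hmx2 (2.64) and the receptor Insrr (1.87). Car12, for instance, had 17.9, 25.2 and 25.9 CPM in LPS and 67.1, 134 and 76.6 CPM in LPS+Tβ4, with no overlap. Of 19 distal convoluted tubule genes 4 rose: Klhl3, which controls the thiazide-sensitive transporter (1.69), the potassium channel Kcnj10 (1.88), Emx1 (2.15) and the sodium-calcium exchanger Slc8a1 (1.57). In the principal cell list Hsd11b2 and Kcne1 (1.95) rose, and the water channel Aqp2 was not called (0.47 ± 0.82).

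The thick ascending limb gave no call in edgeR among 17 genes, with 3 higher at an unadjusted p under 0.05 and 3 higher in DESeq2. Slc12a1, its sodium-potassium-chloride cotransporter, gave 1.15 ± 0.56 and Umod, which encodes uromodulin, 0.13 ± 0.62, with LPS libraries from 421 to 2804 CPM for Umod. Outside the tubule, 2 of 18 podocyte genes rose, Ptpro (1.44) and Col4a3 (0.58), where 4.50% of all genes rose. Neither was called when any 1 library other than LPS replicate 1 was left out, and without that library 4 podocyte genes rose. Of 17 mesangial, pericyte and fibroblast genes 1 rose, the pericyte gene Cspg4 (1.50), which is near the 4.50% of all genes. Cspg4 and Ptpro carry a neural annotation. The call of Cspg4 was lost only without LPS+Tβ4 replicate 2 among the 9 fits that left out a library. None of 21 endothelial genes was called in edgeR, with 1 lower at an unadjusted p under 0.05 and 1 lower in DESeq2.

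The 25 tubule risers became 17, 17 and 14 without saline replicates 1, 2 and 3, 39, 4 and 17 without LPS replicates 1, 2 and 3, and 11, 7 and 26 without LPS+Tβ4 replicates 1, 2 and 3. Without LPS replicate 1, 10 tubule genes also fell. Among the 25, 7 carried a neural annotation, 3 of them in the intercalated list and 3 in the distal convoluted list. The urothelial covariate again gave 25 risers, with 1 tubule gene lower. Replicate 3, pelvis-poor in LPS and pelvis-rich in LPS+Tβ4, was the lowest LPS+Tβ4 library for 12 of the 25. With replicate 3 of both groups left out 48 tubule genes rose and 5 fell.

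**Figure D4:**
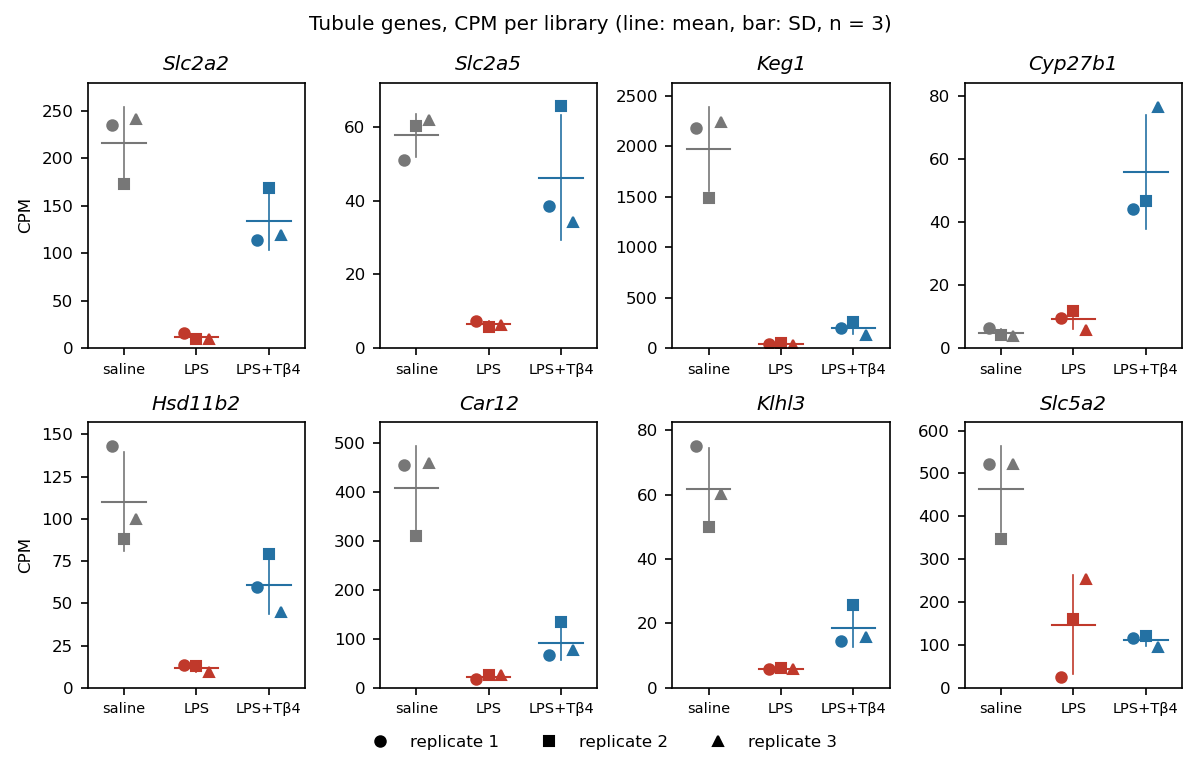
CPM per library (y axis) of 7 tubule genes that rose and of Slc5a2, which was not called, by group, with the mean (line) and SD (bar, n = 3). Slc2a2, Keg1, Hsd11b2, Car12 and Klhl3 lie between LPS and saline in LPS+Tβ4. Slc2a5 does so in LPS+Tβ4 replicates 1 and 3 and lies above every saline library in replicate 2 (65.6 CPM). Cyp27b1 lies above LPS and saline, and Slc5a2 overlaps between the endotoxin groups.

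Metabolic genes of the tubule followed in part. Of 40 fatty acid oxidation genes and targets of the lipid sensor PPARα, 6 rose and none fell (median 0.40), where 4.50% of all genes rose. Eci1, an enzyme for unsaturated fatty acids, went from 45.9, 47.1 and 39.4 to 72, 79 and 66.1 CPM (0.71 ± 0.12, adjusted p = 0.018). Decr1 rose by 0.85, the pantetheinase Vnn1 by 1.26, and the fatty acid hydroxylases Cyp4a31 and Cyp4a14 by 1.20 and 2.43. The Cyp4a genes are close copies. None of the 6 was called without LPS replicate 2, LPS+Tβ4 replicate 1 or LPS+Tβ4 replicate 2, 1 was called without saline replicate 2, 2 without saline replicate 3 and 3 without LPS replicate 3. Without replicate 3 of both groups 18 genes of the list rose.

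Of 38 amino acid breakdown genes 5 rose, where 4.50% of all genes rose. They were the glycine cleavage subunits Amt (1.85) and Gcsh (0.84), Hibch of valine breakdown (0.88), Aldh4a1 of proline breakdown (0.89) and Ddo (0.93). Hibch was tight, at 26, 25.1 and 25.2 CPM in LPS and 50.6, 48.7 and 40.9 CPM in LPS+Tβ4. The 5 became 0 without LPS+Tβ4 replicate 2 and 1 or 2 without any other single library but LPS replicate 1 (7) and LPS+Tβ4 replicate 3 (6). For NAD synthesis, the de novo enzyme Qprt rose from 14.2, 14.4 and 19.6 to 58.9, 84 and 39.5 CPM (1.92), on both sides of its 55.9 to 75.3 CPM in saline, and Nmrk1 rose by 0.83. Nampt, the salvage enzyme induced by inflammation, fell from 299, 259 and 278 to 215, 183 and 175 CPM (-0.54). Fbp2 (1.72) and Pfkm (1.12) rose among 27 glycolysis and gluconeogenesis genes, and Idh3a (0.65) among 19 genes of the TCA cycle. These counts were near the 4.50% of all genes that rose. In cholesterol synthesis Sqle (1.10) rose and Msmo1 (-1.14) fell. No nuclear-encoded respiratory chain gene was called in edgeR or DESeq2 among 44, with 3 higher at an unadjusted p under 0.05 (median 0.14). Of the genes named for NAD, sugar, TCA cycle and cholesterol metabolism, Qprt kept its call in 8 of the 9 fits that left out a library, Fbp2 in 7, Sqle in 5, Nmrk1 in 3, Idh3a in 2, and Nampt, Pfkm and Msmo1 in 1 each.

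Few stress genes were called, where 4.50% of all genes rose and 2.33% fell. Of 24 genes of endoplasmic reticulum and integrated stress 2 fell and 1 rose, and of 22 NRF2 targets and metallothioneins 2 rose, the brain metallothionein Mt3 (1.85) and the detoxifying enzyme Gsta2 (1.41), and none fell. Of 17 heat shock genes edgeR called 0, with 2 lower at an unadjusted p under 0.05 and 1 lower in DESeq2. The stress factor Atf4 went from 229, 322 and 402 to 185, 144 and 152 CPM (-0.98) and its feedback partner Ppp1r15a from 61.5, 65.4 and 97.9 to 43.5, 28.1 and 35.9 CPM (-1.07), whereas the serine synthesis gene Psat1 rose from 100, 84.9 and 90 to 179, 174 and 159 CPM (0.90). Of 19 clock genes 4 fell and 1 rose (median -0.29), where 2.33% of all genes fell. The falls included the repressors Cry1 (-1.43), Cry2 (-1.32) and Per1 (-1.03). Per1, for instance, had 122, 165 and 124 CPM in LPS and 66.1, 50.3 and 85 CPM in LPS+Tβ4, against 33.2 to 48.7 CPM in saline. Hlf, a clock output factor, rose from 5.92, 7.1 and 8.97 to 11.3, 14.8 and 17.3 CPM and stayed far under its 103 to 124 CPM in saline (0.98). The time of day of sampling is not in the labels. The calls of Atf4 and Ppp1r15a held in 1 of the 9 fits that left out a library, the one without LPS replicate 1. Those of Cry2 and Per1 held in 2, those of Cry1 and Hlf in 3 and that of Psat1 in 6. Mt3 kept its call in 3 of the 9 and Gsta2 in 1.

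MAPK signalling is named in the study's title, and at the level of transcripts little of it was called in edgeR. Among its 44 tested kinases and adaptors, 35 changes were below 0 (median -0.26). At an unadjusted p under 0.05 in edgeR, 10 of them were lower and 2 higher. DESeq2 gave 7 lower and 2 higher, where it gave 1072 lower and 1370 higher of all 14952 genes. Of 44 kinases and adaptors, 2 fell, where 2.33% of all genes fell: the adaptor Grb2, which links receptors to RAS, from 96.4, 92.2 and 90.4 to 68.2, 64 and 70.8 CPM (-0.46), and Nras from 89.3, 102 and 115 to 75.6, 63.8 and 67.7 CPM (-0.56). The 2 falls became 0 without any 1 of the saline libraries, LPS replicate 2, LPS+Tβ4 replicate 1 or LPS+Tβ4 replicate 2, 1 without LPS replicate 3, 3 without LPS+Tβ4 replicate 3 and 7 without LPS replicate 1. Mapk3 gave -0.02 ± 0.18, Mapk8 -0.55 ± 0.16 (adjusted p = 0.074) and Mapk14, which encodes the p38α kinase, 0.47 ± 0.13 (adjusted p = 0.067). Of 20 phosphatases and feedback inhibitors Dusp3 alone was called, rising from 45, 33.9 and 38 to 81.4, 87.8 and 73.7 CPM (1.05 ± 0.14, adjusted p = 0.013), a call lost only without LPS+Tβ4 replicate 2 among the 9 fits that left out a library. The AP-1 and immediate-early list, the usual transcriptional readout of MAPK activity, gave 0 calls in edgeR among 24, with 4 lower at an unadjusted p under 0.05 and 1 lower in DESeq2 (median -0.45). Fos (59.5, 55.8 and 15.9 against 22.6, 6.21 and 44.6 CPM) and Jun overlapped between groups. Fosl1, with no count in saline, had 16.5, 17 and 23.2 CPM in LPS and 6.08, 1.1 and 1.68 CPM in LPS+Tβ4 (-2.68 ± 0.67, adjusted p = 0.066). Phosphorylation is not measured by RNA counts. The receptor Egfr fell (-0.54) while Fgfr3 (0.95), which brain also expresses, rose, and these calls held in 2 and 1 of those 9 fits.

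Tmsb4x, the gene of thymosin β4 itself, measured 736, 1205 and 172 CPM in LPS and 227, 190 and 796 CPM in LPS+Tβ4 (-0.80 ± 0.72, adjusted p = 0.53). It was high in the pelvis-rich libraries of both endotoxin groups and low in the pelvis-poor ones. A peptide given to an animal carries no transcript of its own. Among 22 genes of thymosins and actin monomer binding 3 rose and 1 fell, where 4.50% of all genes rose and 2.33% fell. Actb, cytoplasmic β-actin, fell from 1006, 1082 and 923 to 590, 500 and 718 CPM (-0.74). Vil1, the villin of the brush border (1.11), Cap2 (2.48) and the neural profilin Pfn2 (0.77) rose. Cap2 kept its call in 7 of the 9 fits that left out a library, Actb and Vil1 in 2 and Pfn2 in 1, and Actb was 380 to 459 CPM in saline.

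**Figure D5:**
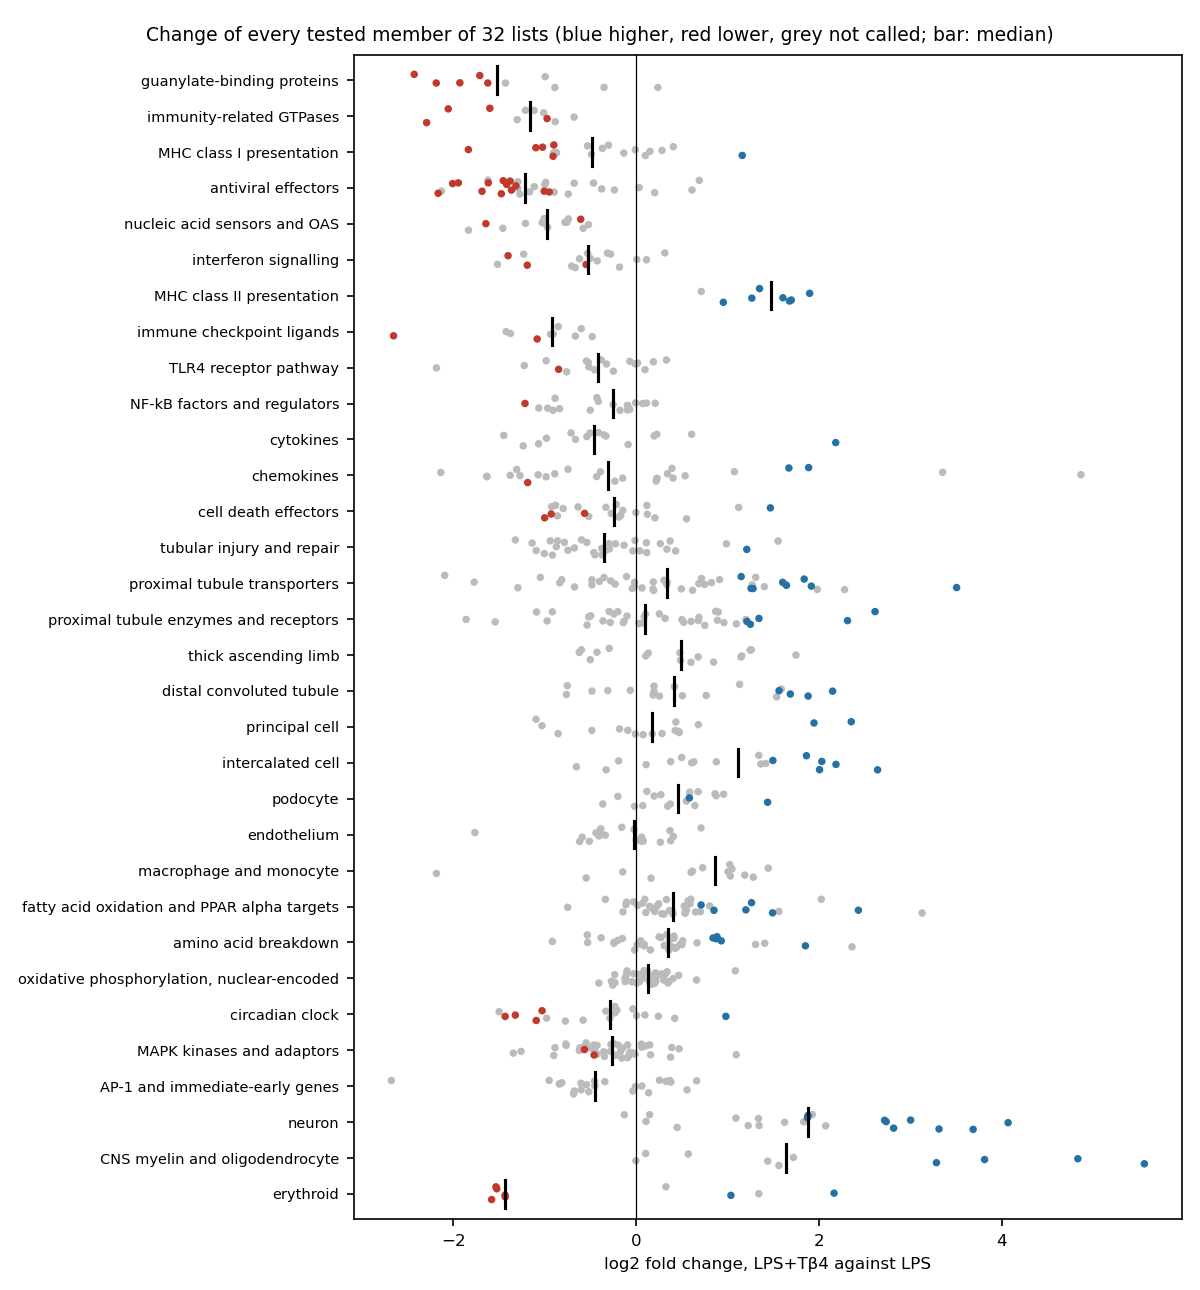
Log2 fold change of LPS+Tβ4 against LPS (x axis) for every tested member of 32 gene lists (y axis), with called genes in blue (higher) or red (lower), others in grey, and the list's median as a bar. The medians of the interferon lists lie to the left of 0 and those of class II and intercalated cell genes to the right. The median of the neuron list lies furthest right, at 1.88.

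The genes with the largest rises were mostly of the nervous system, a tissue that kidney RNA should hold only in traces. Mobp (ENSMUSG00000032517, chromosome 9 at 120149707 to 120176091), a protein of central myelin, had 3.33, 1.3 and 1.31 CPM in LPS and 51.4, 62.3 and 57 CPM in LPS+Tβ4, with 0.938 to 1.48 CPM in saline (4.84 ± 0.42, adjusted p = 0.0049). Its level in each of the 3 LPS+Tβ4 libraries was far above all 6 others. Slc1a2, the glutamate transporter of astrocytes, went from 5.46, 6.16 and 4.08 to 52.4, 68.2 and 55.8 CPM, a change of 3.49 ± 0.20 with the smallest p of all genes (adjusted p = 7.1e-04). Camk2a, a kinase of synapses, rose by 3.69, Vsnl1 by 4.07, the astrocyte filament Gfap by 3.71, Mag by 3.81 and Syt1 by 3.01. In all, 9 of 21 neuron genes, 4 of 10 central myelin genes and 3 of 13 astrocyte genes rose and none fell, where 4.50% of all genes rose. Without LPS replicate 1 these counts were 15, 6 and 5. Without LPS+Tβ4 replicate 2 they were 3, 1 and 1, without LPS replicate 2 they were 5, 2 and 1, and without LPS+Tβ4 replicate 1 they were 5, 2 and 2. Without saline replicate 3 there were 5 neuron calls, and without any other single library 6 to 8. No member of these 3 lists was at 0 in every LPS+Tβ4 library, while Opalin was at 0 in LPS and Opalin, Ermn, Olig2, Slc17a6 and Mlc1 were at 0 in saline. LPS+Tβ4 replicate 3, the pelvis-rich one, was high in neural transcripts as well (728 CPM for the neuron list). With genes of neural annotation left out before the fit, 477 genes were higher and 257 lower.

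Erythroid genes went the other way. Hbb-bs, adult β-globin, measured 203, 204 and 282 CPM in LPS and 91.1, 68 and 71.4 CPM in LPS+Tβ4, with 235 to 255 CPM in saline (-1.58 ± 0.18, adjusted p = 0.0084), a call that held in all 9 fits that left out a library. Hba-a1 and Hba-a2 each fell by 1.43, Hbb-bt by 1.53 and Alas2, the first enzyme of haem synthesis in red cells, by 1.52. This made 5 falls among 9 erythroid genes, where 2.33% of all genes fell. The 5 became 2 without LPS replicate 2, 4 without LPS+Tβ4 replicate 1 and 1 without LPS+Tβ4 replicate 2. The globin genes are near-identical pairs. In this list 2 genes rose, 1 of them Tmcc2 (1.04), which brain also expresses. Urothelial genes gave no call: of 14 tested none was called in edgeR or DESeq2, and none had an unadjusted p under 0.05.

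Among the 12 largest rises after neural genes and outside lists were left out, several are known from the tubule. They were Slc2a2, Tchhl1 (3.36), A4gnt (3.27), Nat8f2 (3.20), Misp3 (3.06), the sialic acid enzyme Npl (3.03), the protease inhibitor Tfpi2 (2.89), Phyhip (2.85), the fructose transporter Slc2a5 (2.84), Fbxl16 (2.64), Cyp27b1 and Tmem52b (2.52). Phyhip and Fbxl16 are known from brain although they carry no neural term here. Slc2a5 measured 7.36, 5.81 and 6.21 CPM in LPS and 38.6, 65.6 and 34.3 CPM in LPS+Tβ4, against 51 to 61.8 CPM in saline, and Nat8f2 measured 21.1, 15.1 and 16.9 against 173, 220 and 95.4 CPM, above its 49 to 67.9 CPM in saline. Tchhl1, Nat8f2, Slc2a5, Tfpi2, Fbxl16, Slc2a2 and Cyp27b1 kept their calls in all 9 fits that left out a library, while A4gnt, at no more than 2.39 CPM in LPS+Tβ4, kept it in 1. The 12 largest falls began with Cyp2j8 (-3.34) and Adam1a (-2.99), followed by Cd274, Gbp4, Gbp9, Mx1, Olfr56, Ifi47, Rsad2, Ifit2, Gbp5 and Cep85 (-1.87). Olfr56 is an olfactory receptor gene that overlaps Ifi47. Cyp2j8 was carried by LPS replicates 2 and 3 (6.6 and 9.48 CPM, against 0.784 CPM in replicate 1), and Adam1a overlaps several genes.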

How the data were processed

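Strand-marked paired-end libraries of poly(A) RNA from 9 mouse kidneys were sequenced, 3 mice in each of 3 groups. The submitters' processing notes name cutadapt (1.9), HISAT2 (2.2.1), StringTie (2.1.6), edgeR, DESeq2 and the build GRCm38 and state no role for any. The table deposited by the authors gives raw counts per gene and FPKM values made by the authors, with gene positions, KEGG pathways and Gene Ontology terms. The sources used here do not give the counting program or its use of strand.

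The count test was edgeR 4.0.16 under R 4.3.3, scaled by TMM, with the quasi-likelihood model fitted to the 3 groups together without covariates. LPS+Tβ4 was tested against LPS, 2-sided. The expression filter was an average FPKM of 0.5 or more across the study, and Benjamini-Hochberg adjustment ran over the genes kept. The SE is the size of the change divided by the square root of F. CPM values are TMM-scaled. Each p-value of the reported fit sets the difference between LPS+Tβ4 and LPS against the spread between mice within groups. That spread was estimated from all 9 libraries with information shared across genes. Neural genes are those with a neural Gene Ontology term in the table or a place in a neural list. Those lists are neuron, central myelin, astrocyte, peripheral nerve, and sympathetic neuron with adrenal medulla. Pelvis-rich libraries are those whose 5 urothelial genes summed to over 10 CPM.

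The comparison, the gene lists and the naming rule were chosen with earlier results of these data known. The rule took the 12 largest rises and falls with non-overlapping groups and an average FPKM of 1 or more, the 12 largest rises outside neural and other outside lists, up to 6 called members per list (or 3 by p where none was called), and fixed markers. Further class I and class II genes, Slc5a2, Slc13a2, Slc16a9, Lrp2, Slc34a1, Kl, Slc12a1, Umod, Aqp2, Tmcc2 and the fructose and folate genes were added after their values were seen or to name a list in full. Certain genes kept back for evaluations go unreported. Alternatives used limma 3.58.1 (on log2 of the deposited FPKM plus 1 or 0.1), DESeq2 1.42.0 and other filters, covariates and sets of libraries. The edgeR step was tested on simulated data. Promoters came from RefSeq (GRCm38.p6), matched by symbol. Figures used matplotlib 3.10.9 with Python 3.11.15.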

Additional observations from a re-analysis of the deposited data

How the results depend on the processing

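Beside the 675 higher, 350 lower, 32 interferon and 25 tubule calls reported, DESeq2 gave 1370, 1072, 52 and 42, the 6 libraries alone 3, 0, 0 and 1, and an erythroid covariate 0, 0, 0 and 0 (230 genes at an unadjusted p under 0.05). With no expression filter 160 genes were lower and 21 interferon genes fell, a mean FPKM of at least 5 gave 384 higher, and limma on log2(FPKM + 0.1) gave 209 lower. Leaving out 1 library gave 65 to 1507 higher, 3 to 1165 lower, 1 to 45 interferon and 4 to 39 tubule calls. The share of higher calls among all calls was 65.9%, and it was 56.1% in DESeq2, 77.9% with limma on log2(FPKM + 0.1) and 75.8% with no filter. Chosen after seeing the data, the fit without replicate 3 of LPS and LPS+Tβ4 gave 978 higher and 934 lower, 52 interferon and 48 tubule calls. Fits within the pelvis-rich libraries gave 1, 0, 0 and 0, with 1707 genes at an unadjusted p under 0.05, and within the pelvis-poor libraries 170, 89, 11 and 6. In both, some groups have 1 library, which is assumed to vary like the others. With a replicate block the counts were 5, 0, 0 and 1, the 5 being Slc1a2, Aplp1, Camk2a, Slc2a2 and Mobp. The numbers pair no samples by the labels, and same-numbered LPS and LPS+Tβ4 libraries deviated from their group means with correlations of -0.28, -0.24 and -0.62. The alternatives were tallied over 188 named genes called in the reported fit or in any alternative. Of these values, 3077 stayed on the same side of the threshold, either called in the same direction or called in neither fit. A further 1616 kept the direction and lost the call, 69 kept the direction and gained a call, and 10 values of called genes changed sign. All 10 came with the erythroid covariate: Cxcl5 0.02, Ccl9 -0.29, Slc8a1 -0.49, Insrr -1.17, Nmrk1 -0.08, Nampt 0.20, Ppp1r15a 0.30, Slc17a7 -0.62, Hba-a1 0.20 and Hba-a2 0.25. The erythroid sum separates the groups completely, so that term and the treatment cannot be told apart. Other causes were not tested. Genes of a few CPM rest on few counts in each library, and 3 mice a group limit the power.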

Other observations

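Genes that handle fructose and related sugars were looked at after Slc2a5 and Slc2a2 were seen among the largest rises, so their choice is not independent of the data. Xylb, a sugar kinase, had 42, 41.6 and 41.8 CPM in LPS and 169, 223 and 131 CPM in LPS+Tβ4, against 334 to 508 CPM in saline (2.06 ± 0.23, adjusted p = 0.0085 in edgeR). Tkfc, which phosphorylates the glyceraldehyde made from fructose, had 80.7, 76.4 and 92.8 CPM in LPS and 273, 309 and 210 CPM in LPS+Tβ4, within its 225 to 276 CPM in saline or near it (1.66 ± 0.17, adjusted p = 0.0072). Both calls held in all 9 fits that left out a library. The fructose kinase Khk (0.86 ± 0.31, adjusted p = 0.13) and the sorbitol enzyme Sord (0.54 ± 0.42, adjusted p = 0.46) were not called.

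In the KEGG list of the folate one-carbon pool, noticed among 290 pathways, 4 of 18 tested genes rose and none fell (median 0.39), where 4.50% of all genes rose. They were Amt, Ftcd (from 2.97, 1.71 and 2.13 to 6.12, 8.5 and 4.53 CPM, 1.49), Mthfd1 (from 45.1, 27.4 and 32.3 to 75.5, 105 and 61.6 CPM, 1.21) and Shmt2 (from 42.1, 25.2 and 33.5 to 71.5, 81.4 and 52.1 CPM, 1.02). All 4 stayed under their saline levels, with Ftcd at 18.7 to 22 CPM and Mthfd1 at 174 to 217 CPM in saline, and all 4 calls were lost in 7 of the 9 fits that left out a library, all but those without LPS replicate 1 or LPS+Tβ4 replicate 3.

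Several genes placed LPS+Tβ4 above both other groups. Nat8f2, Cyp4a14, Vcam1, Ccl6 and the 7 class II genes that rose did so in every LPS+Tβ4 library, and so did Mobp, Slc1a2, Camk2a, Vsnl1, Gfap, Mag and Syt1. Cd74, Pfn2 and Fgfr3 did not. A lung list with 1 tested gene held Ager at 3.12, 6.54 and 3.37 CPM in LPS and 1.71, 1.19 and 2 CPM in LPS+Tβ4 (-1.41, adjusted p = 0.059).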
